A study of Mus musculus with 2 samples.

Results

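Mir1298, Mir448 and Mir1264 are 3 microRNA genes in introns of Htr2c, the X-linked gene of the serotonin receptor 2C. They were picked by symbol from the 2202 microRNA genes of the deposited tables, and they were selected on their read counts in these same libraries, so their levels and ratios are a description and no test was run on them. Small RNA below 30 bases was sequenced from the left cerebral cortex of B6CASTF1/J females aged 4 days, the F1 of a C57BL/6 and a castaneus parent. There was 1 group of 2 animals (numbered 03 and 04 in the labels, under 1 shared donor record) with a library each, and no treatment or second condition was analysed here. Nothing in the labels beyond the animal numbers says how the dissections were done, and whole tissue holds many cell types.

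MicroRNAs are cut from hairpins in longer transcripts, first by Drosha in the nucleus and then by Dicer in the cytoplasm, and an intronic hairpin can be released from the transcript of its host gene. The mature strand guides Argonaute to messenger RNAs that pair with its seed, bases 2 to 8 from the 5′ end. Htr2c encodes a G protein-coupled receptor that is known from neurons and, at high level, from the epithelium of the choroid plexus, the tissue in the brain ventricles that makes cerebrospinal fluid. Its pre-mRNA is known for adenosine-to-inosine editing and alternative splicing, neither of which was measured here.

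The mature products of the 3 genes are shown with the seed in capitals, because none of their seeds recurs within the locus. Sequences are from RefSeq (GRCm38.p6).
miR-1298-5p: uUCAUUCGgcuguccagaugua
miR-1298-3p: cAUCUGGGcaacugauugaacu
miR-448-5p: gAACAUCCugcauagugcugcc
miR-448-3p: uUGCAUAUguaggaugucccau
miR-1264-3p: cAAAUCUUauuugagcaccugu
The 5 products had 5 distinct seeds, and none of these seeds was found in a mature product of another gene among the 1738 mature sequences of the RefSeq table. For Mir1264 only the 3p product is listed there, so a product of its other arm is not covered. Over all 7 microRNA genes that annotation M21 places in Htr2c, 11 products had 11 distinct seeds. The 1 seed found elsewhere was that of miR-764-3p, which miR-7062-5p of chromosome 7 shares. By seed the listed products of this locus therefore fell into no common family.

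The tables count reads over the whole hairpin, so both arms are added up. The hairpins below, from the M21 transcripts, have the listed mature products in capitals.
Mir1298: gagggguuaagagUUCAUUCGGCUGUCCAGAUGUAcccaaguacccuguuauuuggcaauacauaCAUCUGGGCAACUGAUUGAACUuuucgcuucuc
Mir448: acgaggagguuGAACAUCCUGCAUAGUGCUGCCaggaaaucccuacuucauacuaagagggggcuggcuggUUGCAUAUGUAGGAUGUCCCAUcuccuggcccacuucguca
Mir1264: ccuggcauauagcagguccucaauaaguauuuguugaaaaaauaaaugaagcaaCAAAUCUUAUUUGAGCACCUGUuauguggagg
Mir1298 has 98 bases with 44.9% G and C, Mir448 112 bases with 52.7% and Mir1264 86 bases with 36.0%. The 2202 hairpins of the tables had a median of 50.8% (quartiles 42.9% and 57.9%), so Mir1264 lay below the lower quartile. The predicted folding energy per base was -0.472 kcal/mol for Mir1298, -0.451 for Mir448 and -0.399 for Mir1264, beside a median of -0.369 over all hairpins (quartiles -0.440 and -0.304). Mir1298 and Mir448 were thus predicted to fold more stably per base than the lower quartile, and Mir1264 lay between the quartiles. None of the 3 hairpins shares 22 bases with another microRNA gene of the tables. None of their listed mature sequences occurs whole in an M21 transcript of another gene, where transcripts of Htr2c were not searched. Matches to unannotated places in the genome, and the effect of castaneus variants on mapping to the C57BL/6J reference, were not tested.

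On mm10, Htr2c (ENSMUSG00000041380.13) spans 235 kb of the plus strand at chrX:146962513-147197277. All 7 microRNA genes lie on the same strand and in introns. Mir1264 (ENSMUSG00000093122.1, chrX:147010601-147010686) and Mir1298 (ENSMUSG00000080331.1, chrX:147064905-147065002) lie in intron 2, of 90.8 kb, in 3 of the 4 coding transcripts. Mir448 (ENSMUSG00000065450.1, chrX:147158210-147158321) lies in intron 4, of 93.5 kb, in the same transcripts. The other coding transcript has an added exon within that intron 2, so that Mir1264 and Mir1298 lie in its intron 3, of 85.3 kb, and Mir448 in its intron 5. The other genes of intron 2 are Gm22650 (the source of miR-3552), Mir764 and Mir1912, and Gm24627 (the source of miR-1911) lies in intron 4. Mir1912 and Mir1264 are 1.07 kb apart, while 54.2 kb separate Mir1264 from Mir1298. Mir1298 stands 7.38 kb before the next exon of Htr2c and Mir448 11.2 kb before the next exon.

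Values are CPM, counts on the annotated strand scaled to the same total (counts per 1e6) over microRNA genes in each library. Replicate 1 had a total of 3555469 such counts and replicate 2 a total of 2761003, and 1 CPM thus stands for 3.56 reads in the former and 2.76 in the latter. Intervals for single libraries are exact 95% Poisson intervals. They and all other intervals cover counting error only, and may be too narrow even for that, since amplified reads are not independent molecules. No read of any of the 7 genes lay on the opposite strand.

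Mir1298 was the most abundant microRNA of the locus in both animals. It had 3401 counts, or 957 CPM (925 to 989), in replicate 1 and 405 counts, or 147 CPM (133 to 162), in replicate 2. The mean was 552 ± 573 CPM (SD, n = 2), a spread as large as the mean. Mir1298 ranked 109 of 2202 genes in replicate 1 and 198 in replicate 2. Ranks and CPM rest on reads assigned to a gene. Reads that mapped to several places, 45.8% of all reads in replicate 1 and 41.0% in replicate 2, are not in them. How far their absence raises the ranks and CPM of these genes was not tested.

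Mir448 came next. It had 258 counts, or 72.6 CPM (64.0 to 82.0), in replicate 1 and 86 counts, or 31.1 CPM (24.9 to 38.5), in replicate 2, a mean of 51.9 ± 29.3 CPM (SD, n = 2). Its ranks were 237 and 268. Mir1264 had 137 counts, or 38.5 CPM (32.4 to 45.6), in replicate 1 and 46 counts, or 16.7 CPM (12.2 to 22.2), in replicate 2, a mean of 27.6 ± 15.5 CPM (SD, n = 2), with ranks of 260 and 302. The order Mir1298, Mir448, Mir1264 held in each library without overlap of the counting intervals. Over the 2 animals, however, the means ± SD of all 3 genes overlap. All 3 genes were higher in replicate 1, with intervals that did not overlap between the libraries.

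The remaining genes of Htr2c were lower. Mir764 had 42 counts, or 11.8 CPM (8.51 to 16.0), in replicate 1 and 28 counts, or 10.1 CPM (6.74 to 14.7), in replicate 2. Its mean was 11.0 ± 1.18 CPM (SD, n = 2), and its intervals overlapped between the libraries. Mir1912 had 3 counts, all in replicate 1, and Gm22650 had 3 counts there and 1 in replicate 2. Gm24627 had no read in either library, so that, at the 3 counts that a 0 is taken to allow, its level may be as high as 0.844 CPM in replicate 1 and, in replicate 2, 1.09 CPM. Mir1912 lies beside Mir1264, and its 0.844 CPM in replicate 1 stood against 38.5 CPM for that neighbour.

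**Figure D1:**
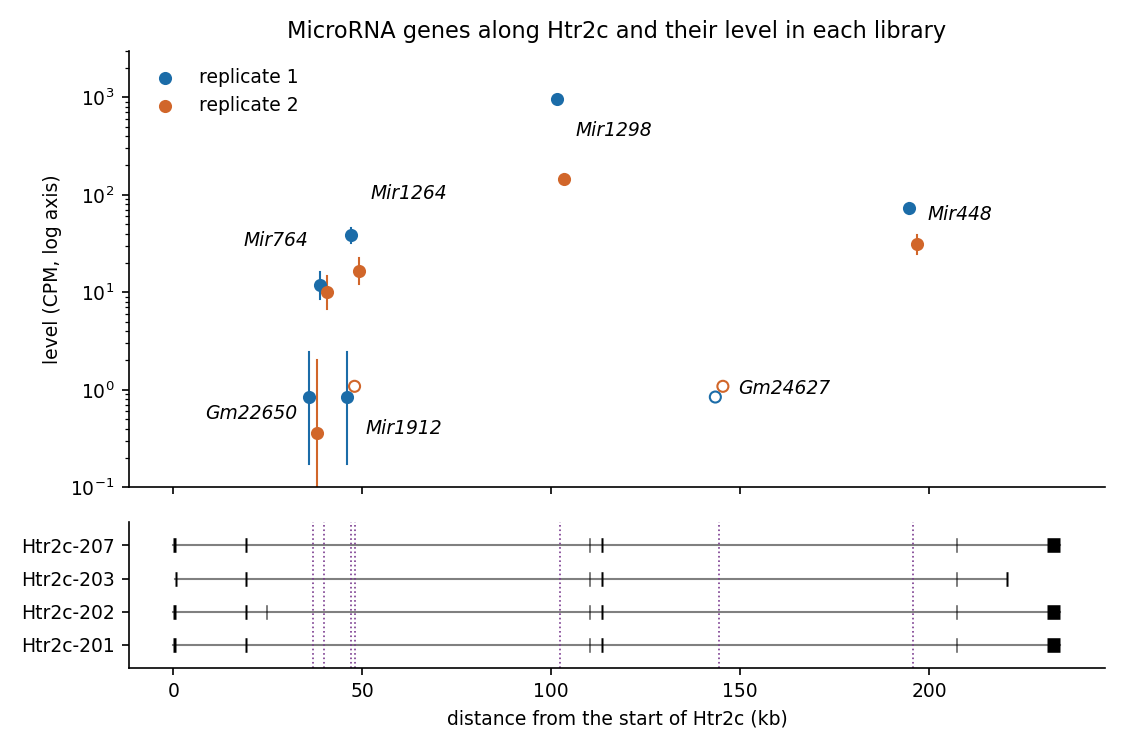
Upper panel, level of each microRNA gene (CPM, log axis) against its distance from the start of Htr2c (kb), with 95% Poisson intervals as bars where longer than the symbol. Open circles mark a count of 0 and stand at the level of 3 counts. The lower panel shows the exons (black, short ones drawn wider than to scale) of the coding transcripts, with a dotted line at each microRNA gene. Mir1298, at 957 and 147 CPM, stands above its neighbours, and replicate 1 is above replicate 2 for Mir1298, Mir448 and Mir1264.

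At a minimum of 2 CPM in both libraries, all 3 genes were detected, beside 20.4% of all 2202 microRNA genes. Of the 7 genes in Htr2c, 4 were detected, the 3 above and Mir764. Among microRNA genes in introns of coding genes on the same strand 25.9% of 741 were detected, and among those of the X chromosome 28.2% of 142. Since the 3 genes were picked with their counts known, nothing is read from these shares. On the X chromosome Mir1298 ranked 13 by mean level, Mir448 25 and Mir1264 29. The most abundant X-linked genes were Mir652 (16075 ± 1812 CPM, SD, n = 2), Mir361 (5482 ± 1179), Mir676 (4584 ± 803), Mir98 (4540 ± 558) and Mir322 (3429 ± 395). Together the 3 genes held 0.107% of the counts assigned to microRNA genes in replicate 1 and 0.0194% in replicate 2.

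Ratios between the animals were computed as log2 of replicate 2 over replicate 1, with library sizes scaled by the trimmed mean of M-values (TMM) and 0.5 added to each count, and a negative value means more in replicate 1. Mir1298 was 6.59-fold higher in replicate 1, a log2 ratio of -2.72 (exact interval -2.87 to -2.57). Mir448 was 2.35-fold higher there, at -1.23 (-1.61 to -0.88), and Mir1264 2.32-fold higher, at -1.22 (-1.74 to -0.74). Mir764 had a log2 ratio of -0.23 with an interval that spanned 0 (-0.98 to 0.49). The interval of Mir1298 did not overlap those of the others.

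All 3 genes were at least 2-fold higher in replicate 1, beside 11.6% of the 440 genes that had 20 or more counts over both libraries. These 440 genes had a median log2 ratio of -0.08 (quartiles -0.49 and 0.28), with an SD of 1.00. Only 8 of them had a lower ratio than Mir1298, namely Mir200b, Mir429, Mir200a, Mir26a-2, Mir141, Mir201, Mir200c and Mir183. Mir201 had 24 counts in replicate 1 and 1 in replicate 2, so its place there is uncertain. Mir141 and Mir200a had only 4 and 6 counts in replicate 2. Among the 63 genes whose mean level was within 2-fold of that of Mir1298, 3 had a lower ratio, Mir200b, Mir429 and Mir200c. Ratios of Mir448 and Mir1264 were less extreme, with 32 and 34 genes at or below them. The other X-linked genes had a median of -0.12 over 37 genes, of which 2 were at least 2-fold higher in replicate 1. With 1 library per animal these ratios describe the 2 libraries, and effects of the animal, of the dissection and of preparing the library cannot be told apart.

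**Figure D2:**
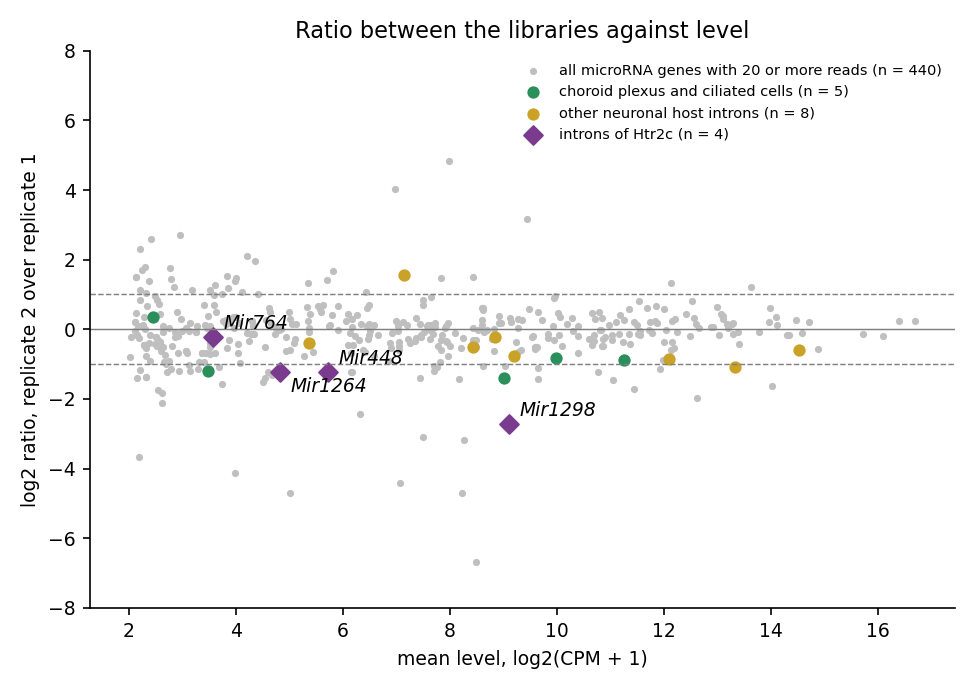
Each point is a microRNA gene with 20 or more reads, placed by its mean level (log2(CPM + 1)) and its log2 ratio of replicate 2 over replicate 1, with dashed lines at 2-fold. Mir1298 at -2.72 lies far below the bulk of genes of its level, Mir448 and Mir1264 lie just past the lower line, and Mir764 lies near 0.

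Proportions within the locus do not depend on how the libraries are scaled. Mir1298 made up 89.6% (Wilson interval 88.6 to 90.5) of the summed count of the 3 genes in replicate 1 and 75.4% (71.6 to 78.9) in replicate 2. Mir448 made up 6.80% (6.04 to 7.64) and 16.0% (13.2 to 19.4), and Mir1264 3.61% (3.06 to 4.25) and 8.57% (6.48 to 11.2). The intervals did not overlap between the libraries. The 3 shares add up to the whole, so the higher shares of Mir448 and Mir1264 in replicate 2 follow from the lower share of Mir1298, and the levels of both genes were lower there.

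Mir1298 had 13.2 counts for each count of Mir448 in replicate 1 (exact interval 11.6 to 15.0) and 4.71 (3.72 to 6.01) in replicate 2. The quotient of these was 2.80 (conditional exact interval 2.12 to 3.67). Against Mir1264, its neighbour in intron 2, Mir1298 had 24.8 (20.9 to 29.7) and 8.80 (6.48 to 12.2) counts for each count, a quotient of 2.82 (1.94 to 4.03). Mir448 and Mir1264, in different introns, stood in nearly the same proportion in both libraries, with 1.88 counts of Mir448 for each of Mir1264 in replicate 1 (1.52 to 2.33) and 1.87 in replicate 2 (1.29 to 2.74). Their quotient was 1.01, with an interval of 0.649 to 1.55. Against Mir764, of intron 2 as well, the quotients were 2.00 (1.12 to 3.53) for Mir448 and 1.98 (1.06 to 3.69) for Mir1264. These intervals leave out the spread between animals, which 1 library each does not give.

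**Figure D3:**
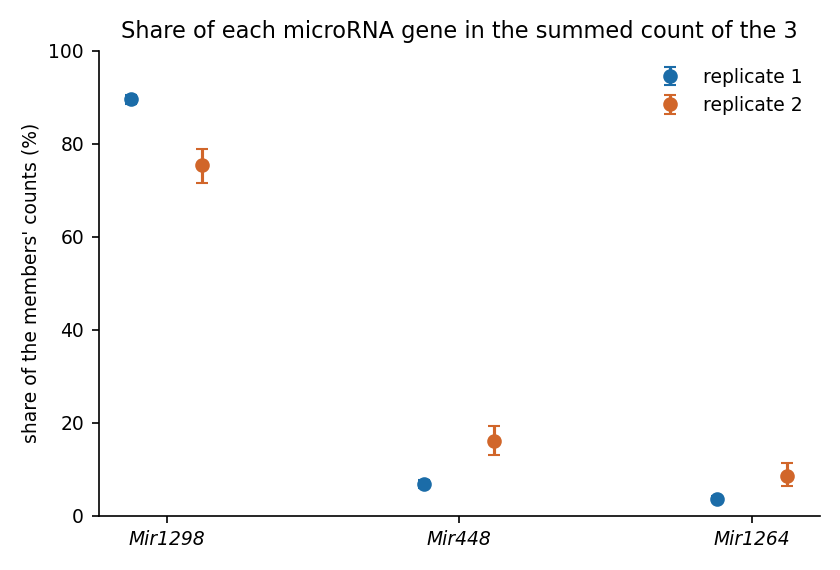
Share of each microRNA gene in the summed count of Mir1298, Mir448 and Mir1264 (%, y axis), by gene and library, with 95% Wilson intervals as bars. The share of Mir1298 was 89.6% in replicate 1 and 75.4% in replicate 2, and those of Mir448 and Mir1264 were lower in replicate 1.

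Markers of other cell types differed between the libraries as well. Their counts are to be read beside the same background, 20.4% of all genes detected and 11.6% of those tested at least 2-fold higher in replicate 1. A majority of the 440 genes tested were higher in replicate 1 to some degree, since their median log2 ratio was -0.08. In a bulk library fewer cells of a type and less RNA per cell cannot be told apart. MicroRNAs known from choroid plexus and ciliated cells, the former a known site of Htr2c, summed to 5228 CPM in replicate 1 against 2794 CPM in replicate 2, 1.89-fold higher in replicate 1 (log2 ratio -0.92, -0.96 to -0.88). Of the 7 genes of that list 5 were detected, all 7 had reads, and of the 5 with 20 or more counts 4 were higher in replicate 1 and 2 at least 2-fold so. Their median log2 ratio was -0.87, beside -0.08 over all genes tested. Mir449a, of multiciliated cells, held most of the sum, with 3168 CPM in replicate 1 and 1754 CPM in replicate 2. It stood at -0.87 (-0.92 to -0.82). Mir204, which lies in an intron of Trpm3 and is abundant in choroid plexus, stood at -0.82 (-0.90 to -0.74). The lowest of the list was Mir34c, at -1.39 (-1.50 to -1.27), and Mir211 at 0.35 had an interval that spanned 0 (-0.83 to 1.53). The ratio of Mir1298 lay below that of each of these 5, while the intervals of Mir448 and Mir1264 overlapped those of Mir34c, Mir34b, Mir449a and Mir204. That of Mir1264 also overlapped the wide interval of Mir211.

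Epithelial microRNAs summed to 2475 CPM in replicate 1 against 361 CPM in replicate 2, with 6 of 7 detected, all 7 higher in replicate 1 and 6 of them at least 2-fold, at a median of -4.13. Their ratio of sums was 6.93-fold. Red cell microRNAs were higher in replicate 2, with 550 CPM against 60.2 CPM, and all 3 were detected. Mir451a, which carried the sum, stood at 4.83 and Mir144 at 2.11, while Mir486 stood at -0.29 with an interval that spanned 0 (-0.71 to 0.11). What these cell types contribute to the ratios of Mir1298, Mir448 and Mir1264 was not tested. To check for neuronal tissue, 6 neuron-enriched genes were read, of which 3 were detected. Such genes cannot tell cortex from other regions of the brain. Mir137, a neuronal microRNA, had 14035 ± 512 CPM (SD, n = 2) and a log2 ratio of -0.09. Mir138-1 had 2993 ± 1186 CPM and Mir138-2 990 ± 427 CPM, and both were higher in replicate 2, at 0.81 and 0.89. The 3 Mir124a copies had means of 1.63 to 2.51 CPM. Copies of Mir124a, of Mir138 and of Mir128 each give a like mature product, reads that map to several places are assigned to no gene, and how much this lowers the counts of these copies was not tested.

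MicroRNAs in introns of other neuronal genes gave a second point of reference. The list goes by host gene, and which cells of the tissue made these microRNAs was not tested. For Mir139, listed for Pde2a, the host assigned here was Gm45837. All 8 on the list were detected. Of these, 7 were higher in replicate 1, as were a majority of all genes tested, at a median of -0.55 beside -0.08. At least 2-fold higher there was 1 gene, a share close to the 11.6% over all genes tested. Mir128-1, in R3hdm1, had the lowest ratio, -1.08 (-1.11 to -1.06), and Mir128-2, in Arpp21, stood at -0.86 (-0.90 to -0.82). Mir504, in the X-linked Fgf13, stood at -0.40 (-0.79 to -0.03). Mir153, in Ptprn2, was 2.96-fold higher in replicate 2 (1.56, 1.35 to 1.79). The intervals of Mir448 and Mir1264 overlapped those of Mir128-1 and Mir128-2, that of Mir1264 also those of Mir338 and Mir504, and Mir1298 lay below all 8.

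**Figure D4:**
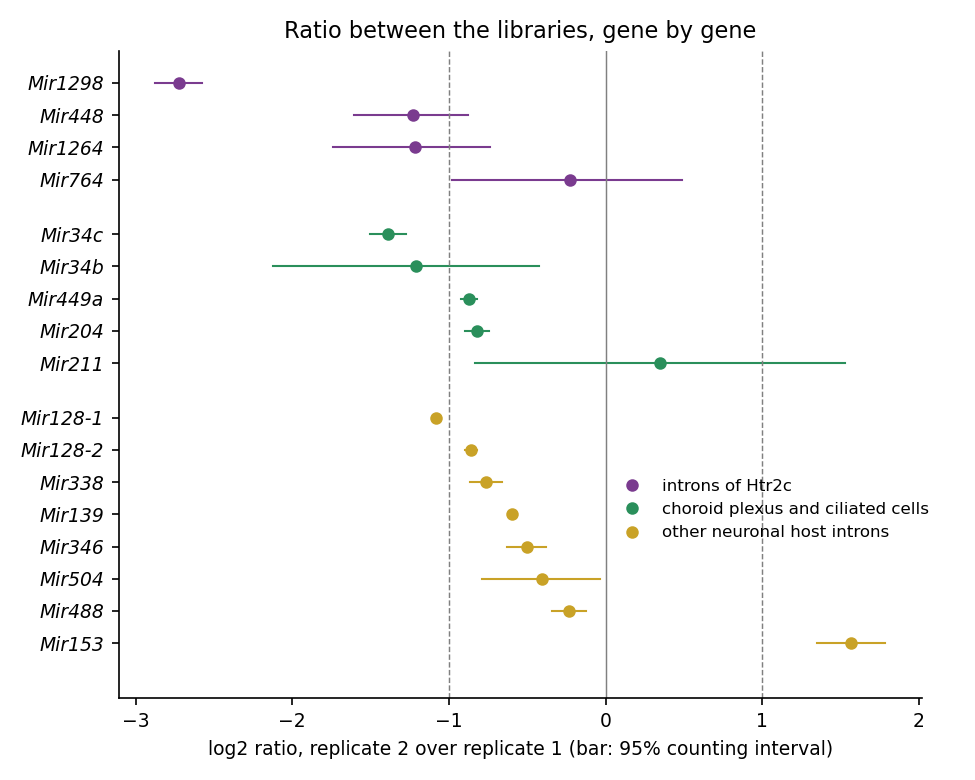
Log2 ratio of replicate 2 over replicate 1 (x axis) for genes in introns of Htr2c, for choroid plexus and ciliated cell microRNAs and for microRNAs in introns of other neuronal genes, with 95% counting intervals as bars and dashed lines at 2-fold. Mir1298 at -2.72 lies to the left of all others shown, and Mir448 and Mir1264 lie between Mir34c and Mir34b of the first list and, by their point values, to the left of the second list.

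Genes with the most similar pair of values were sought among detected genes by distance in log2(CPM + 1) over the 2 libraries, which is too few for a pattern. Nearest to Mir1298 were Mir34c (748 and 289 CPM, distance 1.04), Mir203 (531 and 259 CPM, distance 1.17) and Mir380 (416 and 157 CPM, distance 1.20), so that no gene lay close to it. Mir448 was nearest to Mir494, Mir194-2 and Mir181a-2, at distances of 0.48 to 0.62. Mir1264 was nearest to Mir206 (0.26), Mir24-1 (0.32) and Mir5121 (0.48). None of these 9 genes lies on the X chromosome or in an intron of a coding gene on its own strand.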

How the data were processed

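The authors deposited 1 table of whole-number read counts per library over 2202 microRNA genes, neither pooled nor normalized. Build mm10 and annotation M21 are given per the file headers and notes deposited with each library. Aligner, counter and filters are not given in the sources used here. Columns 2 and 3 were read as counts on either strand and on the annotated strand, from the layout and the values. All 2202 gene IDs matched M21. Totals that name no gene (reads unmapped, mapped to several places or outside genes) made up 69.6% of reads in replicate 1 and 72.2% in replicate 2 and were left out of library sizes.

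CPM, log2 ratios and intervals were computed here from the deposited counts with scipy 1.17.1, and TMM factors with edgeR 4.0.16, checked on simulated data. Hairpins were folded with RNAfold 2.7.2. The genes and lists were chosen with earlier results of these data known. Named were the 3 genes, other microRNA genes in Htr2c, list members, genes sharing a seed, the 3 nearest detected genes of each and the 5 most abundant X-linked genes; the genes with ratios below Mir1298 were named after their values were seen. Alternatives covered strand, scaling, minimum counts and each replicate left out.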

Additional observations from a re-analysis of the deposited data

How the results depend on the processing

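Directions held under every alternative run for Mir1298, Mir448 and Mir1264. Their log2 ratios stayed within their counting intervals with RLE factors, with library sizes alone, with 1 added to each count and with both strands. Scaling moved the median ratio of all genes by at most 0.02. These settings could hardly have moved the ratios. No read of these genes lay on the opposite strand, and the TMM and RLE factors on the annotated strand lay between 0.994 and 1.006. Scaled to all reads of each library, the levels of Mir1298, Mir448 and Mir1264 fell to 165.9, 15.4 and 8.18. The choroid plexus and ciliated cell sum fell to 1183. That denominator also holds the reads that name no gene. Most of these mapped to several places (45.8% of reads in replicate 1 and 41.0% in replicate 2) or were unmapped (19.3% and 25.6%). Without a filter on low counts, replicate 1 was at least 2-fold higher for 146 genes and replicate 2 for 165, in place of 51 and 37, and among genes with 100 or more counts replicate 1 was higher for 34 and replicate 2 for 15. The level of Mir1298 was 147 CPM without replicate 1 and 957 CPM without replicate 2, so 1 library decides its mean. A ratio between libraries could not be computed with a replicate left out. No paired analysis was possible because there is 1 group. At this depth the ratios of Mir1912, Gm22650 and Gm24627 were not measurable.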

Other observations

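The spread of ratios within Htr2c was set beside other coding genes that hold at least 3 microRNA genes in introns on their own strand, each with a summed count of 20 or more, a comparison chosen after the values were seen. There were 4 such hosts. The log2 ratios of the 4 genes in Htr2c ranged from -2.72 (Mir1298) to -0.23 (Mir764), a range of 2.49. In Ttll10 the range over 3 genes was 1.97, from -6.67 (Mir200b) to -4.70 (Mir200a), with the lowest summed count at 220. Both ends are imprecise, with 19 counts of Mir200b and 6 of Mir200a in replicate 2. Their intervals overlap (-7.44 to -6.06 and -6.27 to -3.66). In Sfmbt2 it was 1.75 over 7 genes, each of which has 22 bases in common with some other hairpin, which leaves the counts uncertain. In Clcn5, also on the X chromosome, 5 genes ranged from -0.67 (Mir501) to 0.66 (Mir362), a range of 1.33. The smallest summed count in Htr2c was 70, for Mir764, whose interval of -0.98 to 0.49 makes its end of the range imprecise. No test of these ranges was run.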
